A study of Mus musculus with 3 samples.

Results

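HBO1 ChIP-seq peaks were examined at the nuclear genes for oxidative phosphorylation in Oct1 deficient mouse ESCs. HBO1, encoded by Kat7, is a histone acetyltransferase of the MYST family that works in complexes with scaffold proteins such as Jade1. The genes were all protein-coding genes on nuclear chromosomes of GENCODE vM21 whose symbol starts with Nduf, Uqcr, Atp5, Cox4, Cox5, Cox6, Cox7 or Cox8, together with Cyc1, Sdha, Sdhb, Sdhc and Sdhd. This gave 95 of 21938 coding gene records. Atp5o accounts for 2 of them, because the annotation also holds a readthrough record under that symbol. The cells lack functional Oct1, the Oct4 paralog encoded by Pou2f1, and there was no group with Oct1. They were grown with 3 µM CHIR99021, which inhibits GSK3, with 1 µM of a MEK inhibitor and with ascorbic acid, and chromatin was fixed with 1% formaldehyde. The samples, all of this genotype, were 2 immunoprecipitations with HBO1 antibody and 1 input of sheared chromatin.

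A single list of 13823 HBO1 peaks was deposited and was assumed to come from the ChIP samples jointly, so no value below has a spread between replicates. Each peak carries the authors' fold enrichment over the local background, −log10 q and a summit, and every listed peak had a −log10 q of at least 2.30. The input held 31973678 aligned read ends. ChIP reads were not analysed here. The second ChIP sample carries HBO2 as its antibody label but HBO1 in its title, and it was treated as HBO1. A supplementary title of the study calls the cells of these peaks WT ESCs. Labels and methods give Oct1 deficient, and the genotype behind the list was taken from these. No expression was measured, so the identity of the cells was not checked against marker genes, and genes of like expression could not be compared. Intervals are exact binomial 95% confidence intervals. They cover counting error only, and genes are not replicates.

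Oxidative phosphorylation takes place at the inner mitochondrial membrane. Complex I (NADH dehydrogenase) and complex II (succinate dehydrogenase) pass electrons to ubiquinone, complex III (cytochrome bc1) passes them to cytochrome c, and complex IV (cytochrome c oxidase) passes them to oxygen. Complexes I, III and IV pump protons, and complex V (ATP synthase) uses the proton gradient to make ATP. Complexes I, III, IV and V combine subunits encoded by mitochondrial DNA with nuclear ones, and their nuclear genes have been studied as targets of NRF1 and of the ETS factor GABP, also called NRF2. Many of these genes have GC-rich starts, and some share a divergent promoter with another gene.

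The sequences before several of these genes show the motifs for which the family is known, at genes with and without an HBO1 peak. In all, 4 motifs were searched on both strands in the RefSeq promoter window of GRCm38, from 250 bases before to 50 after the gene start. They were the NRF1 core CGCATGCG, which is its own reverse complement, the ETS motif CCGGAAG, the YY1 motif AAGATGGC and the octamer ATGCAAAT bound by Oct1 and Oct4. None of these 4 letter strings holds another. The stretches below lie before the RefSeq start and hold no annotated exon. They are on the gene strand, 5′ to 3′, with the motif letters in capitals on either strand. The first 4 genes had an HBO1 peak within 1 kb of a TSS and the other 4 had none.
Sdhd, chr9:50603850-50603909, minus strand: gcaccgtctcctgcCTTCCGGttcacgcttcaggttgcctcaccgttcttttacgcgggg
Ndufaf1, chr2:119662835-119662974, minus strand: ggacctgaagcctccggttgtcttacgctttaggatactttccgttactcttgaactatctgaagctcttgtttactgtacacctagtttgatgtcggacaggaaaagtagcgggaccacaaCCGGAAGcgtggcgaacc
Atp5e, chr2:174464106-174464245, minus strand: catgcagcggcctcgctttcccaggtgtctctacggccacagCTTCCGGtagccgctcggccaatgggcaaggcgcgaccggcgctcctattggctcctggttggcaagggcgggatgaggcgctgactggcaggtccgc
Uqcrh, chr4:116075072-116075211, minus strand: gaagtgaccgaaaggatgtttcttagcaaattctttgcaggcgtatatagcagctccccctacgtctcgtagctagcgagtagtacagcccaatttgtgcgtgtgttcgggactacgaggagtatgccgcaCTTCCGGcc
Cox6a1, chr5:115348982-115349121, minus strand: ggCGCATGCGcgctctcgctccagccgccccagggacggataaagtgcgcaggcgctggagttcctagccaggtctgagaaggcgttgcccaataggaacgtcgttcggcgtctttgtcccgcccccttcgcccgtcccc
Ndufa11, chr17:56717686-56717761, plus strand: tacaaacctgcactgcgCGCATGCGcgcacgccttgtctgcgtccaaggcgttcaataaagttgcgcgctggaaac
Atp5l, chr9:44920853-44920992, minus strand: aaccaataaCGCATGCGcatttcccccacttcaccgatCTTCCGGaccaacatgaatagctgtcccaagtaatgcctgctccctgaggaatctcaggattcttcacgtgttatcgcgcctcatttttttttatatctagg
Uqcr11, chr10:80406831-80406970, minus strand: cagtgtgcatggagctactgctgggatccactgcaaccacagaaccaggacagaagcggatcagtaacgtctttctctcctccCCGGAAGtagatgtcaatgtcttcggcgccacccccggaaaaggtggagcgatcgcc

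Uqcrh and Sdhd have the ETS motif within 50 bases of the RefSeq start, at −10 and −46, and their peaks lay 381 and 171 bp from that start. In the stretch of Cox6a1, the NRF1 core stands at −161, and the nearest peak edge was 7772 bp from any of its TSSs. Cox6a1 also has the ETS motif, at −16, past the end of its printed stretch. Past the end of theirs, Uqcr11 has the NRF1 core at −5 and Atp5l has a further ETS motif 24 bases after the start. Within 50 bases before the start, the ETS motif also stood at Ndufaf1 (−18), Atp5h (−38), Ndufaf8 (−8) and Ndufs3 (−27), all with a peak. Other genes with it there but without a peak were Cox6b1 (−28), Cox8a (−5) and Ndufb7 (−20). Up to 50 bases after the start, the ETS motif stood at Ndufs3 (1), with a peak. It also stood there at Sdhb (6), Atp5k (12), Ndufs8 (15), Atp5l (24) and Cox8a (32), all without a peak. The NRF1 core occurred in the promoter of 11 of the 77 genes that matched a RefSeq promoter entry (14.3%) and of 471 of 16702 other coding genes (2.82%). It was found at 3 of 30 genes with a peak (10.0%) and at 8 of 47 without one (17.0%), and among other coding genes at 4.38% with a peak and 2.36% without. The ETS motif occurred at 18 of the 77 genes (23.4%, against 13.2% of other coding genes), 8 of 30 with a peak (26.7%) and 10 of 47 without (21.3%). Among other coding genes the ETS motif was at 21.7% with a peak and 10.7% without. The motif of the zinc finger factor YY1 occurred at 11 of the 77 genes (14.3%, against 3.58%). It was at 7 of 30 genes with a peak (23.3%, interval 9.93 to 42.3%) and 4 of 47 without (8.51%, interval 2.37 to 20.4%). It began before the RefSeq start only at Atp5f1 (−3) and Atp5j (−88), and at the others 10 to 38 bases after it. Among other coding genes the YY1 motif was at 5.91% with a peak and 2.90% without, so they too had it more often where there was a peak. The intervals of the respiratory genes overlap, and no difference between genes with and without a peak was tested. No motif share was set beside genes of like GC content, though the NRF1 core and the ETS motif hold CG. The octamer was found at Ndufs4 alone, 166 bases before the RefSeq start, a share of 1.30% against 1.90% of other coding genes. The MORE, a dimeric site of Oct4 near which the study reports preferred HBO1 binding, was not searched. Both records of Atp5o, which lacked a peak, matched the same promoter entry, and each counts among the 77. That entry held none of the 4 motifs. The 18 records without a RefSeq promoter entry were not searched.

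An HBO1 peak with an edge within 1 kb of any TSS was found at 38 of the 95 genes (40.0%, interval 30.1 to 50.6%). A TSS inside the peak counted as a distance of 0. Of all coding genes, 4764 of 21938 (21.7%) had such a peak. Because peaks were more frequent at GC-rich starts, each gene was also set beside the other coding genes whose GC content, over 1 kb centered on the outermost TSS, fell in the same 2% class. Genes of like promoter GC gave an expected share of 22.3%, or 21.2 genes, and the observed share was 1.80 times that. At a −log10 q of 10 or more, 17 genes (17.9%) had a peak, against 7.97% of all coding genes and 7.93% expected from GC content, a ratio of 2.26. These are descriptions of 1 peak list and carry no test.

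GC content was not the only property in which these genes differed from others. Their ratio of observed to expected CpG had a median of 0.72, against 0.55 in other coding genes. With classes of GC content and CpG ratio together, the ratio of observed to expected shares was 1.44. Input was also somewhat denser, with a median of 65.0 read ends per 1 kb centered on the outermost TSS against 59.0 for coding genes of like GC. The median was 70.0 for genes with a peak and 63.0 for those without. Without peaks whose summit had over 10 input read ends within 1 kb centered on it, 2 of the 95 genes had a peak (2.11%) against 1.88% expected, and the ratio was 1.12. Those 2 were Ndufb10 and Ndufb4, with 4 and 6 input read ends at the summit, and both peaks lay near an internal TSS and over 1 kb from the outermost one. Gene starts hold far more input than this limit, so it removes nearly all promoter peaks by its construction. The part of input depth in the peaks was not tested.

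By complex, the share with a peak was highest for complex V, at 12 of 18 genes (66.7%, interval 41.0 to 86.7%), against 24.2% expected from GC content. Complex III followed with 4 of 9 genes (44.4%, interval 13.7 to 78.8%, expected 22.5%). The Nduf assembly factors had a peak at 3 of 8 (37.5%, interval 8.52 to 75.5%, expected 24.7%). Complex IV had one at 6 of 18 (33.3%, interval 13.3 to 59.0%, expected 20.2%) and complex I at 12 of 38 (31.6%, interval 17.5 to 48.7%, expected 21.7%). Complex II had 1 of 4 (25.0%, interval 0.631 to 80.6%, expected 23.0%). The expected share lay within the interval for each group other than complex V. The genes outside complex V had a peak at 26 of 77 (33.8%, interval 23.4 to 45.4%) against 21.8% expected. This interval overlaps that of complex V, and the complexes were not tested against each other. At a −log10 q of 10 or more, complex III (3 of 9) and complex V (6 of 18) both stood at 33.3%, against 7.96% and 8.51% expected. Counting a gene only where a TSS lay in the peak, complex V (7 of 18, 38.9%, expected 11.8%) stood close to the assembly factors (3 of 8, 37.5%, expected 12.2%). Complexes III and IV then both stood at 22.2%, against 11.2% and 10.4% expected, complex I at 10.5% against 10.9%, and complex II at 0% against 11.8%. Without genes whose peak lay nearer to another coding gene, complex III had 2 of 7 (28.6%, expected 22.9%), below the assembly factors (37.5%) and complex IV (29.4%), and complex II had 0 of 3.

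**Figure D1:**
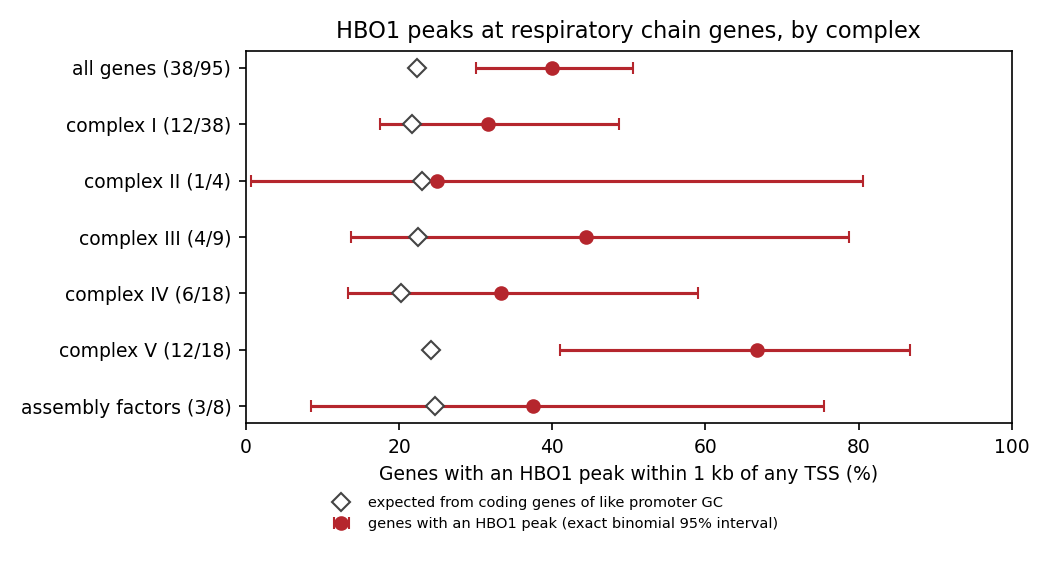
Share of genes with an HBO1 peak within 1 kb of any TSS, in percent, for all 95 genes, complexes I to V and the Nduf assembly factors. Filled points with bars give the observed share and its exact binomial 95% interval, and open diamonds give the share expected from other coding genes of like promoter GC. Complex V stands at 66.7% with its interval above the diamond at 24.2%, while the intervals of complexes I to IV and the assembly factors span theirs.

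Within complex V, every gene of the catalytic F1 head and of the c ring had a peak. The F1 head makes ATP, and its genes Atp5a1 (alpha), Atp5b (beta), Atp5c1 (gamma), Atp5d (delta) and Atp5e (epsilon) all had one. The c ring turns in the membrane as protons pass, and its protein is encoded by Atp5g1, Atp5g2 and Atp5g3, which all had one. The peak of Atp5d lay 166 bp from its TSS and covered a TSS of Cbarp. Those of Atp5a1 and Atp5c1 covered a TSS of their own gene and lay 95 and 175 bp from a TSS of Haus1 and Kin. Without genes whose peak lay nearer to another gene, complex V had a peak at 10 of 16 (62.5%, expected 20.9%). Of the 5 records of the stalk, which holds the head in place, Atp5f1, Atp5h and Atp5j had a peak, and both records of Atp5o lacked one. Of the remaining 5 genes, Atp5j2 had a peak, and Atp5k, Atp5l, Atp5mpl and Atp5s did not. By GC content alone, 1.28 of the 5 head genes and 0.759 of the 3 c ring genes would have had one. With 5 and 3 genes, the lower limits of the shares were 47.8% and 29.2%. Shares by part of a complex were not among the planned results. At a −log10 q of 10 or more, Atp5a1, Atp5b and Atp5e kept a peak, while Atp5c1, Atp5d and the c ring genes did not.

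The strongest peak of complex V by −log10 q was that of Atp5f1, which encodes subunit b of the stalk. It lay at chr3:105959504-105960111 of mm10, with a −log10 q of 19.1, a fold enrichment of 2.38 and its summit 391 bp upstream of the nearest TSS of the gene, in an intron of another transcript. A TSS of the divergent gene Wdr77 also lay in this peak. A second peak at chr3:105958846-105959221 had a −log10 q of 8.33. Atp5f1 is the only gene of the 95 on chromosome 3 between 100 and 140 Mb, where input was raised. Coding genes of 50 to 60% GC had a median of 122 input read ends around the TSS there and 50.0 elsewhere, and 38.3% and 19.8% of them had a peak. The summit of Atp5f1 had 183 input read ends, the highest among the 38 genes. Without chromosome 3 the ratio of observed to expected shares was 1.78.

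Atp5j, which encodes coupling factor F6 of the stalk, had a peak at chr16:84835256-84835999 that covered a TSS, with its summit 7 bp downstream, 3.14-fold enrichment and a −log10 q of 18.6. Its outermost TSS lies 700 bp from that of Gabpa on the other strand, and the peak lay 132 bp from a TSS of Gabpa. Gabpa encodes the DNA-binding subunit of GABP, so this peak counts both for a respiratory gene and for a gene of one of its known regulators. The RefSeq promoter of Atp5j held the NRF1 core at −147, the YY1 motif at −88 and the ETS motif at −61, and the RefSeq start lay 280 bp from the peak. A second peak of Atp5j had a −log10 q of 8.79.

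Atp5b, which encodes the catalytic beta subunit, had a peak at chr10:128083308-128084135, 2 bp from a TSS, with its summit 105 bp downstream, 3.42-fold enrichment and a −log10 q of 17.4. Atp5h, for subunit d of the stalk, had a peak at chr11:115420177-115420801 with 2.69-fold enrichment and a −log10 q of 12.9. Its summit lay 399 bp upstream, and a TSS of the divergent gene Kctd2 lay in the peak. The other peaks of complex V had a −log10 q of 11.9 at Atp5a1, 10.3 at Atp5e, 9.86 at Atp5d, 9.13 at Atp5j2, 7.30 at Atp5c1, 5.98 at Atp5g3, 5.16 at Atp5g2 and 5.14 at Atp5g1. The 3 c ring genes thus had the lowest −log10 q of the complex.

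**Figure D2:**
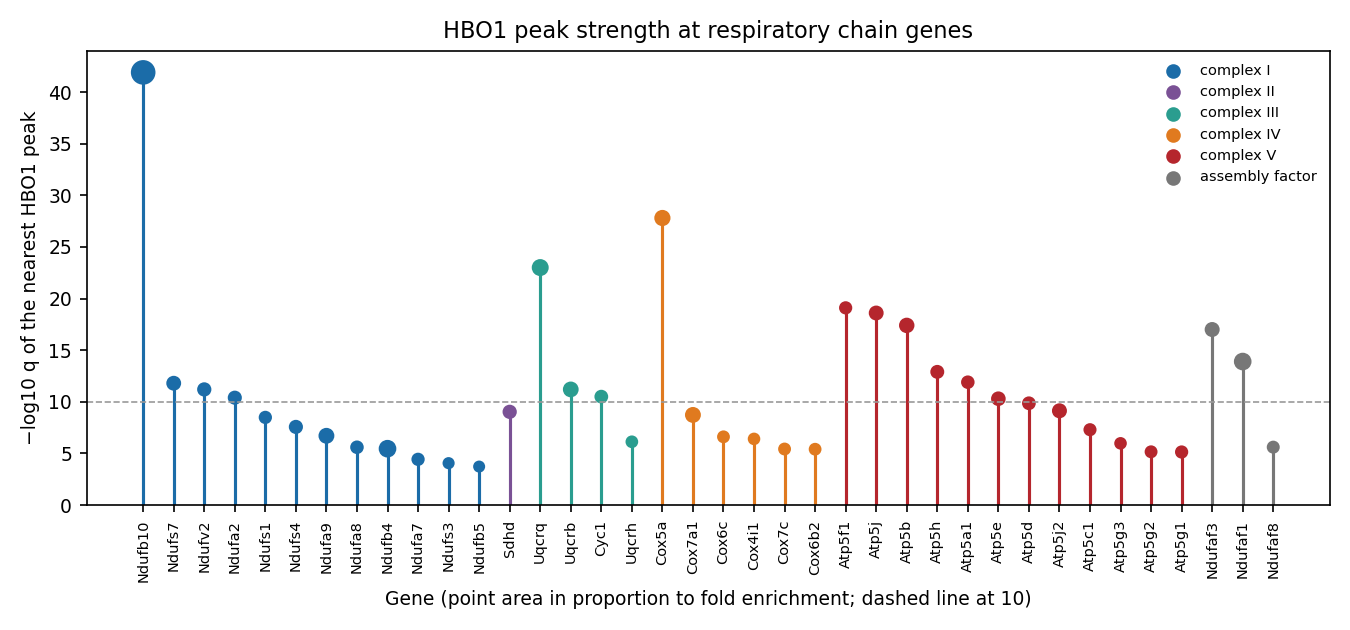
The −log10 q of the HBO1 peak nearest to each of the 38 genes with a peak, grouped by complex and ordered within it, with the area of each point in proportion to fold enrichment. Ndufb10 stands highest at 41.9, followed by Cox5a at 27.8 and Uqcrq at 23.0, while most other genes lie near or below the dashed line at 10.

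Complex I has a core of 7 nuclear subunits that carry electrons and many accessory ones. A peak was found at 4 of 7 core genes (57.1%, interval 18.4 to 90.1%, expected 23.3%) and at 8 of 31 accessory genes (25.8%, interval 11.9 to 44.6%, expected 21.4%). The core genes with a peak were Ndufs1, Ndufs3, Ndufs7 and Ndufv2. The accessory genes with a peak were Ndufa2, Ndufa7, Ndufa8, Ndufa9, Ndufb4, Ndufb5, Ndufb10 and Ndufs4. Ndufa4 is counted here by its symbol, although its protein is now known as a subunit of complex IV, and it had no peak.

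The strongest peak of all 38 by both measures was that of Ndufb10, an accessory subunit of the membrane arm, at chr17:24722632-24723065. It had 9.74-fold enrichment and a −log10 q of 41.9, with its summit in an exon 52 bp downstream of an internal TSS. The outermost TSS of Ndufb10 is at 24724478 on the minus strand, outside the peak, and with the outermost TSS alone the gene would lie beyond 1 kb. The nearest TSS of another coding gene, the ribosomal protein gene Rps2, was 1183 bp from the peak. The summit had 4 input read ends, the fewest among the 38, against 70 around the outermost TSS of the gene.

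The next 3 peaks of complex I were much weaker. Ndufs7, a core subunit that holds an iron-sulfur cluster near the site of ubiquinone, had a peak at chr10:80249175-80249580 over a TSS, with 3.12-fold enrichment and a −log10 q of 11.8. Ndufv2, another iron-sulfur core subunit, had a peak at chr17:66100993-66101392, 103 bp from a TSS, with 2.84-fold enrichment and a −log10 q of 11.2. Ndufa2, an accessory subunit, had a peak 54 bp from a TSS with 2.77-fold enrichment and a −log10 q of 10.4, and it shared it with Ik. The remaining 8 had a −log10 q from 3.73 at Ndufb5 to 8.49 at Ndufs1.

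In complex II, Sdhd alone had a peak. It encodes 1 of the 2 membrane anchors, and Sdha, Sdhb and Sdhc encode the flavoprotein, the iron-sulfur subunit and the other anchor. The peak lay at chr9:50604020-50604311, 208 bp from a TSS of Sdhd and 110 bp from one of Timm8b, a mitochondrial import gene on the other strand. It had 2.84-fold enrichment and a −log10 q of 9.03, with its summit 350 bp upstream of Sdhd. The nearest peaks of Sdha, Sdhb and Sdhc lay 112452, 99865 and 22299 bp from their TSSs.

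In complex III, peaks were found at Cyc1, Uqcrb, Uqcrh and Uqcrq, and none at Uqcr10, Uqcr11, Uqcrc1, Uqcrc2 or Uqcrfs1. Uqcrq, a small subunit, had the strongest, at chr11:53430289-53430812, with a fold enrichment of 4.24, a −log10 q of 23.0 and a TSS in the peak. Uqcrb, another small subunit, had a peak at chr13:66904892-66905346 with 3.58-fold enrichment and a −log10 q of 11.2. Cyc1, which encodes the heme-bearing cytochrome c1, had a peak at chr15:76343567-76343862 with 2.61-fold enrichment and a −log10 q of 10.5, and a second one of −log10 q 3.83. Uqcrh, the hinge protein, had a peak at chr4:116075451-116076111 with 2.15-fold enrichment and a −log10 q of 6.13. That peak lay 380 bp upstream, over a TSS of the divergent gene Lrrc41. The genes of the Rieske iron-sulfur protein, Uqcrfs1, and of both core proteins lacked a peak.

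In complex IV, Cox5a had the strongest peak, at chr9:57521292-57521816, with 3.82-fold enrichment and a −log10 q of 27.8. Cox5a encodes a subunit on the matrix side, and the peak covered a TSS with its summit in an intron 155 bp downstream. Cox4i1, the widely expressed form of subunit IV, followed by its stronger peak, 217 bp upstream of a TSS at chr8:120667566-120668005, with a −log10 q of 14.3. Its nearest peak, at chr8:120668370-120668814, had 2.10-fold enrichment and a −log10 q of 6.41. Cox7a1, the heart and muscle isoform of subunit VIIa, had a −log10 q of 8.73 and a fold enrichment of 3.66, but its peak at chr7:30185080-30185513 lay 886 bp downstream of a TSS. Cox6c had a peak at chr15:35937587-35938109 with 2.21-fold enrichment and a −log10 q of 6.61. Cox7c and Cox6b2 had a −log10 q of 5.43 and 5.41.

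Among the assembly factors, Ndufaf3 had a peak at chr9:108566562-108567086 with 3.20-fold enrichment and a −log10 q of 17.0. Ndufaf1, a factor for the membrane arm of complex I, had one at chr2:119662569-119662884 with 4.63-fold enrichment and a −log10 q of 13.9. The peak of Ndufaf8 at chr11:120099068-120099546 had 2.28-fold enrichment and a −log10 q of 5.61. A TSS lay in the peak at each of these 3 genes. Ndufaf2, Ndufaf4, Ndufaf5, Ndufaf6 and Ndufaf7 had none.

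Subunits of complex IV and the c ring exist in several versions. Of 8 isoforms known from particular tissues or conditions, 7 counted in complex IV and Ndufa4l2 in complex I, Cox6b2 (testis) and Cox7a1 (heart and muscle) had a peak (25.0%, interval 3.19 to 65.1%, expected 17.1%). Cox4i1 had a peak and Cox4i2 had its nearest peak 34020 bp away. The order was the other way for subunit VIb, where Cox6b2 had a peak and the widely expressed Cox6b1 had its nearest 34820 bp away. It was also the other way for subunit VIIa, where Cox7a2 had its nearest peak 274060 bp and Cox7a2l 22495 bp away. Cox7a2l is known as a factor of respiratory supercomplexes. Neither form of subunit VIa had a peak, with 7772 bp for Cox6a1 and 18393 bp for Cox6a2, and neither Cox7b nor Cox7b2 had one, with 86499 and 290805 bp. Cox8a, Cox8b and Cox8c had their nearest peaks at 2957, 44365 and 74310 bp, and Ndufa4 and Ndufa4l2 at 61906 and 1585 bp. The c ring genes Atp5g1, Atp5g2 and Atp5g3 encode the same mature protein, and all 3 had a peak, with fold enrichments of 2.38, 2.24 and 2.11.

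The threshold of 1 kb was close for few genes. Just inside lay Uqcrh at 380 bp, Cox7a1 at 886 bp and Ndufb4 at 955 bp, and just outside lay Ndufa4l2 at 1585 bp, Ndufv3 at 1990 bp and Ndufs6 at 2504 bp. The 955 bp of Ndufb4 were to an internal TSS, and its outermost TSS, at 37654453 on the minus strand of chromosome 16, lay beyond 1 kb from the peak at chr16:37648019-37648404. The 57 genes without a peak had their nearest one at a median of 34820 bp. For 10 of them it lay at 1 to 10 kb, for 24 at 10 to 50 kb and for 23 beyond 50 kb, up to 1596400 bp at Ndufaf5. The genes without a peak had a median GC content of 56.6% and those with a peak 57.1%.

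Where the peaks lay was described by the summit relative to the nearest TSS of the gene. The summit was downstream for 27 of 38 genes (71.1%, interval 54.1 to 84.6%), against 73.3% of the 4726 other coding genes with a peak. The median position was 113 bp downstream, against 140 bp. More than 100 bp downstream lay 20 summits, within 100 bp of the TSS 10, and more than 100 bp upstream 8. A TSS lay in the peak for 20 of the 38 (52.6%, against 50.2%). Summits fell in introns for 14 genes, in exons outside UTRs for 10, in UTRs for 9 and outside the gene for 5. The median fold enrichment was 2.65 against 2.59, and the median −log10 q 8.88 against 7.97, so the peaks of these genes lay and measured much as those of other coding genes.

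**Figure D3:**
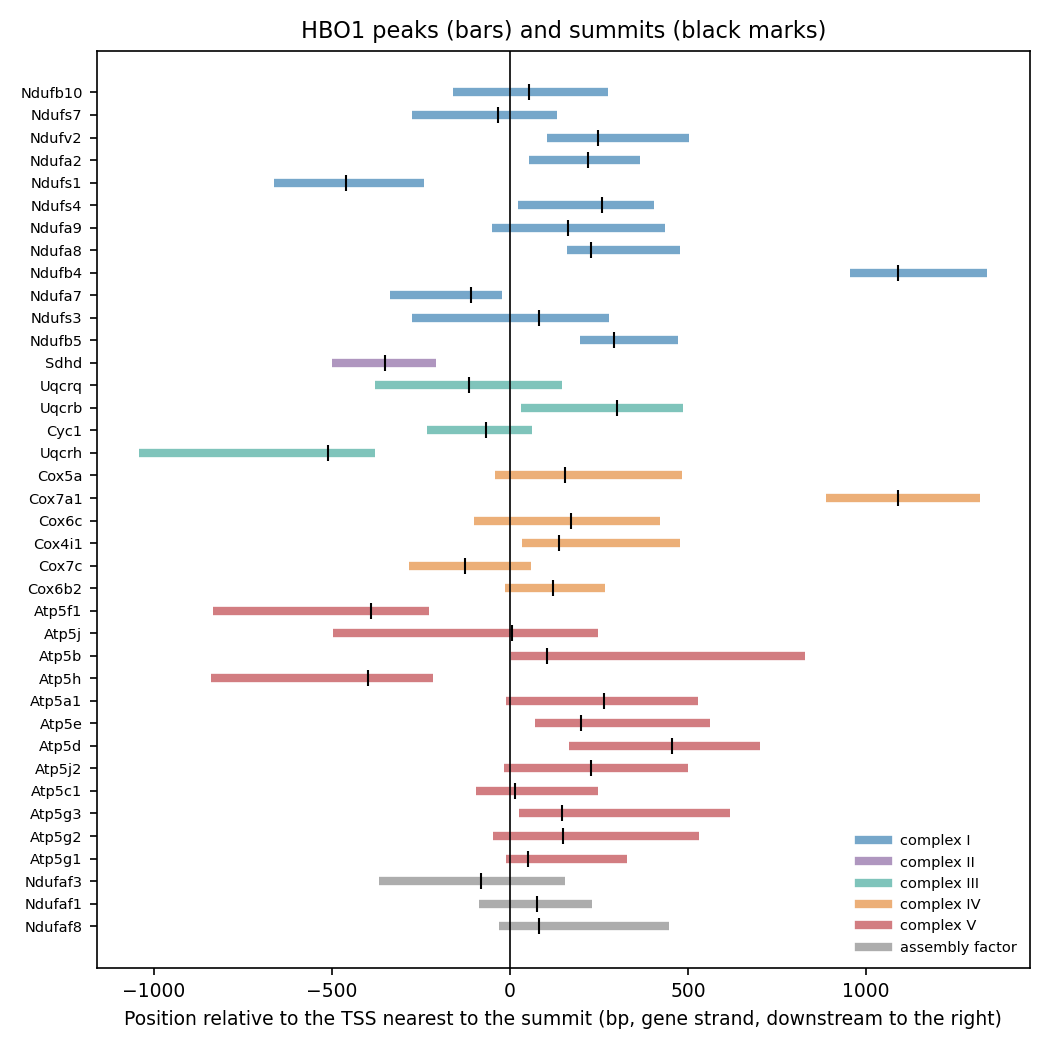
HBO1 peaks of the 38 genes with a peak, drawn to scale relative to the TSS nearest to the summit, in bp on the gene strand with downstream to the right. Bars give the peak and black marks its summit, and colors give the complex. Most summits lie shortly downstream of the TSS, those of Ndufb4 (from an internal TSS) and Cox7a1 lie 1090 bp downstream, and Uqcrh and Ndufs1 have theirs 511 and 460 bp upstream. At Atp5f1 a TSS farther from the summit lay in the peak.

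The sequence under a summit, from 75 bases before to 75 after and cut where an annotated exon begins, could be taken for 11 of the 38 genes and is printed for 7 to show its range of CpG content. The stretches are from GRCm38, on the gene strand, 5′ to 3′, with each CG in capitals. Cox5a, Ndufv2 and Atp5g3 lie in introns downstream of the start, and Sdhd and Ndufs1 lie upstream of the gene. Ndufa9 has the lowest GC content of the 11, and Ndufb4 the fewest CG among those of 151 bases.
Cox5a, chr9:57521416-57521563, plus strand: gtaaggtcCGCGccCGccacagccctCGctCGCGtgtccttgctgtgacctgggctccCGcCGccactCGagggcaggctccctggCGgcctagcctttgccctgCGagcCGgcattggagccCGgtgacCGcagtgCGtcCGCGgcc
Ndufv2, chr17:66101173-66101323, minus strand: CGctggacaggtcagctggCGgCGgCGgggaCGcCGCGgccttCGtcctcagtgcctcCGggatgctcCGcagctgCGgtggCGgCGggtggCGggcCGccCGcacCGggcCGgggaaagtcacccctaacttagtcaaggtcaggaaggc
Atp5g3, chr2:73911061-73911210, minus strand: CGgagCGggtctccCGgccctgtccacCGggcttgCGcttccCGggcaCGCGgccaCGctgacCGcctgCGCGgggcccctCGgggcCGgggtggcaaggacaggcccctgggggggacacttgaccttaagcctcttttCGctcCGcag
Sdhd, chr9:50604087-50604237, minus strand: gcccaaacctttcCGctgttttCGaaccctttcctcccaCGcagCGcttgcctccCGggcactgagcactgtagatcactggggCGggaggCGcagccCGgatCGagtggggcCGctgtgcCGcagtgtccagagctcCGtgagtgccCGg
Ndufs1, chr1:63177292-63177368, minus strand: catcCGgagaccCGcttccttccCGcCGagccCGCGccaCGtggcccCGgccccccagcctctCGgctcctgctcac
Ndufa9, chr6:126848886-126849036, minus strand: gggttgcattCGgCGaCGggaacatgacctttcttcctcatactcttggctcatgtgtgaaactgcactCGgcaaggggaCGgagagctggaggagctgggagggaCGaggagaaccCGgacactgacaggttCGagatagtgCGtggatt
Ndufb4, chr16:37648194-37648344, minus strand: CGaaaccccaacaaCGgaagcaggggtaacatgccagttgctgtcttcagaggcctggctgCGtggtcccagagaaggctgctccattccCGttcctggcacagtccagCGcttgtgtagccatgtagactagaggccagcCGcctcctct

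The 148 bases of Cox5a held 17 CG and 73.6% GC, the 151 of Ndufv2 held 18 CG and 73.5% GC, and the 150 of Atp5g3 held 16 CG and 74.7% GC. Ndufa9 had 9 CG and 57.0% GC in 151 bases, and Ndufb4 had 6 CG and 59.6% GC. Over all 11 stretches, of 77 to 151 bases, there were 5 to 18 CG. No like stretches of other genes were taken for comparison. The peak of Ndufa9 had a fold enrichment of 3.64 at 18 input read ends, while that of Cox5a had 3.82 at 108. The stretches of Ndufs1 and Sdhd, with 9 CG in 77 bases and 13 in 151, lie beyond the outermost TSS of the divergent neighbor, Eef1b2 and Timm8b.

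When the genes were split by GC content at the outermost TSS, over 1 kb, the share with a peak rose less evenly than in other coding genes. Below 50% GC it was 4 of 11 (36.4%, interval 10.9 to 69.2%), against 6.47% of other coding genes. These 11 genes had 42.7 to 49.6% GC, and other coding genes of their own 2% classes gave 10.1%, just under the lower limit. The gene of lowest GC, Atp5j2, had its peak at chr5:145191012-145191528, outside the 1 kb around its outermost TSS at 145192062. From 50 to 55% it was 9 of 24 (37.5%, interval 18.8 to 59.4%, against 17.0%), and from 55 to 60% it was 12 of 40 (30.0%, interval 16.6 to 46.5%, against 22.4%). From 60 to 65% it was 9 of 16 (56.2%, interval 29.9 to 80.2%, against 32.6%), and at 65% and over it was 4 of 4 (lower limit 39.8%, against 51.2%). The observed share was above that of other genes in all 5 ranges. The interval lay above the share of other genes in both ranges below 55% GC and spanned it in the 3 ranges from 55% up.

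**Figure D4:**
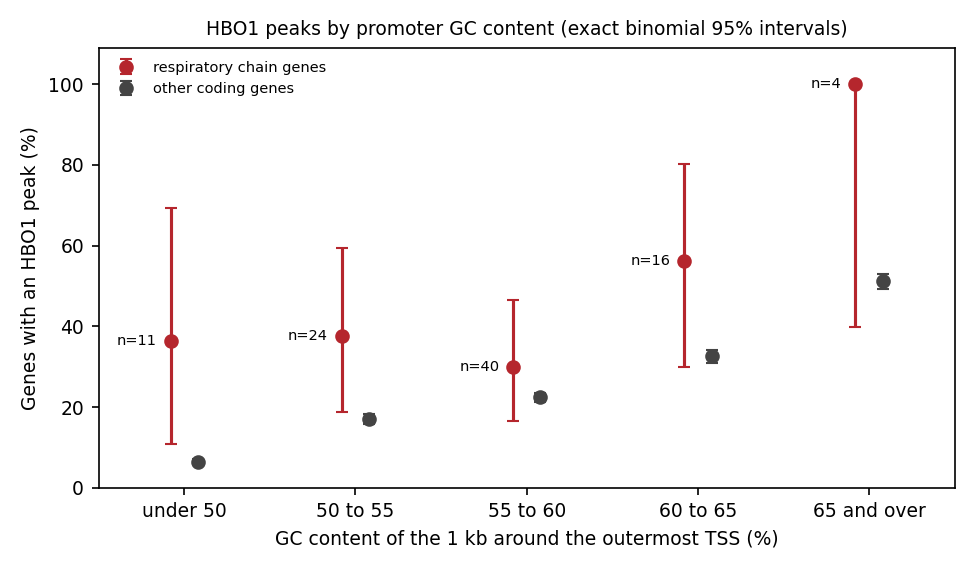
Share of genes with an HBO1 peak within 1 kb of any TSS, in percent, by GC content over 1 kb centered on the outermost TSS. Red points are the respiratory chain genes, with their number beside each, and grey points are the other coding genes, with exact binomial 95% intervals. The red points lie above the grey ones in each range, from 36.4% against 6.47% below 50% GC, where the grey point includes genes of lower GC than any red one, to 4 of 4 genes against 51.2% at 65% and over.

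Many of these genes face another gene. A coding gene on the other strand with its outermost TSS within 1 kb was present for 35 of the 95 (36.8%, interval 27.2 to 47.4%), against 10.7% of other coding genes. Of these 35, 17 had a peak (48.6%, interval 31.4 to 66.0%), and of the other 60, 21 had one (35.0%, interval 23.1 to 48.4%). Other coding genes had a peak in 37.5% of cases with such a neighbor and 19.7% without. Coding genes of like GC and of the same kind gave 33.2% and 19.2%. With classes of GC content and such a neighbor, an alternative added after seeing the data, the expected share was 24.4% and the ratio 1.64.

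Of the 38 peaks, 18 (47.4%) also lay within 1 kb of a TSS of another coding gene, against 975 of the 4726 other coding genes with a peak (20.6%). For 9 of the 38 the other gene was nearer. The partners were Ik, Rps28, Morn5, Mrpl47, Eef1b2, Kbtbd4, Timm8b, Gm10767, Lrrc41, Gdf9, Emc8, Haus1, Kin, Cbarp, Wdr77, Kctd2, Gabpa and Tepsin, and no property of them was tested. As examples chosen after their values were seen, Ndufa7 faces the ribosomal protein gene Rps28, whose TSS lay in the peak, with outermost TSSs 10 bp apart. Ndufs1 faces the elongation factor gene Eef1b2 at 8 bp, Ndufb5 faces the mitochondrial ribosomal gene Mrpl47 at 615 bp, and Sdhd faces Timm8b at 98 bp. A peak at such a place cannot be assigned to either gene from these data. Leaving out all genes whose peak lay nearer to another gene, among these and among other coding genes, gave a ratio of 1.68.

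Other gene lists of the same pathway and of the organelle were set beside these. The 55 assembly factors of complexes I to V, which include the 8 Nduf factors, had a peak at 18 (32.7%, interval 20.7 to 46.7%, expected from GC content 22.9%). Surf1, a factor for complex IV, had the strongest with a −log10 q of 25.0, 978 bp from a TSS, followed by Ndufaf3 and Ndufaf1. The 16 genes for coenzyme Q and cytochrome c had a peak at 4 (25.0%, interval 7.27 to 52.4%, expected 23.4%). They were Coq2, with a −log10 q of 8.72, Pdss2 with 7.90, Coq4 with 3.84 and Pdss1 with 2.57, which make or modify coenzyme Q.

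The citrate cycle and pyruvate dehydrogenase, which feed the chain with electrons, had a peak at 12 of 19 genes (63.2%, interval 38.4 to 83.7%, expected 28.3%). The strongest were those of Dld (lipoamide dehydrogenase, 19.0), Idh3b (a subunit of isocitrate dehydrogenase, 15.1) and Cs (citrate synthase, 11.1), given as −log10 q. Genes for import and cristae had a peak at 19 of 33 (57.6%, interval 39.2 to 74.5%, expected 26.1%). They were led by the receptors Tomm20, at 23.8, and Tomm22, at 15.9, and by the chaperonin genes Hspd1 and Hspe1, which shared 1 peak of 15.3. This list also counts the carrier genes Slc25a3, Slc25a4 and Slc25a5, which all had a peak.

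Genes for the maintenance and expression of mitochondrial DNA had a peak at 11 of 23 (47.8%, interval 26.8 to 69.4%, expected 21.0%). Polg2, the accessory subunit of the mitochondrial polymerase, had a −log10 q of 15.9, the packaging factor Tfam 15.7 and the initiation factor Mtif2 11.7. Of 14 nuclear regulators of respiratory genes, 9 had a peak (64.3%, interval 35.1 to 87.2%, expected 35.2%). Nrf1 had a −log10 q of 30.4 and a TSS in the peak, and Gabpa, by the peak shared with Atp5j, and Pprc1 both had 18.6.

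The mitochondrial ribosome had a peak at 31 of 78 genes (39.7%, interval 28.8 to 51.5%, expected 22.4%), close to the share of the respiratory genes. Its strongest were Mrpl51 (22.1), Mrpl35 (17.1) and Mrpl12 (17.0). The cytosolic ribosome had one at 75 of 84 genes (89.3%, lower limit 80.6%, expected 21.7%), led by Rpl3 at 63.3, Rps12 at 57.4 and Rps19 at 53.4. Its median GC content, 56.6%, was near the 56.7% of the respiratory genes.

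**Figure D5:**
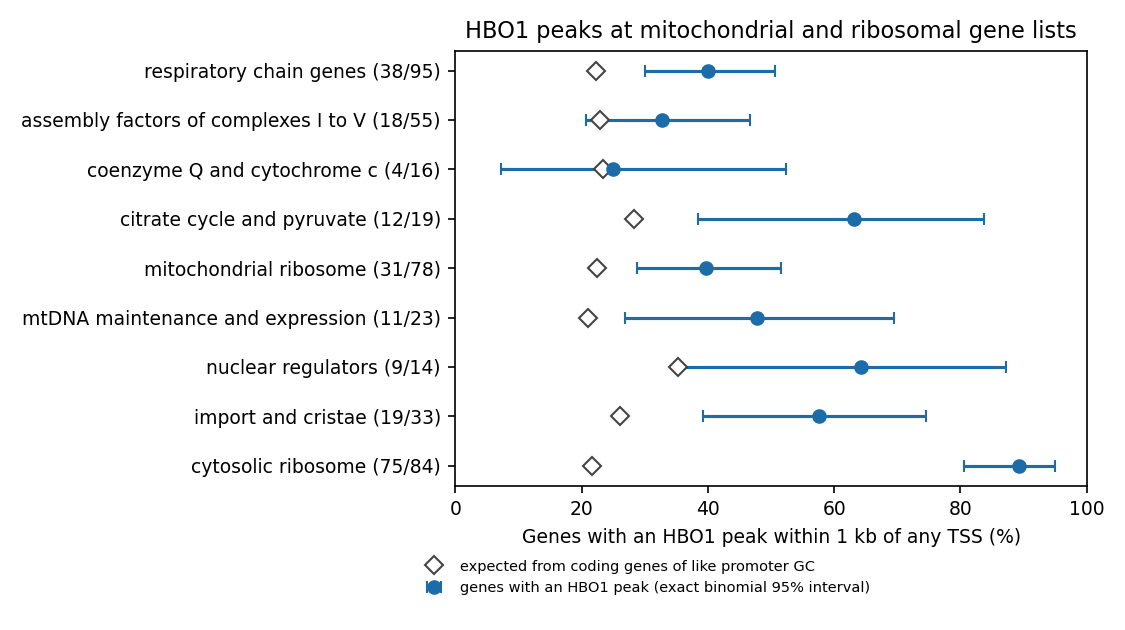
Share of genes with an HBO1 peak within 1 kb of any TSS, in percent, for the respiratory chain genes and 8 other gene lists, with exact binomial 95% intervals. Open diamonds give the share expected from other coding genes of like promoter GC. The respiratory chain at 40.0% and the mitochondrial ribosome at 39.7% lie side by side, coenzyme Q and cytochrome c at 25.0% lie near the expected 23.4%, and the cytosolic ribosome stands apart at 89.3%.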

How the data were processed

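The authors aligned paired reads of the ChIP and input samples to mm10 with Novoalign 4.03.01 and called HBO1 peaks with MACS2. How the ChIP samples were combined is not given in the sources used here. The deposited list gives, in the layout of MACS2, fold enrichment as the authors' ratio to local background, a −log10 q, a display score and a summit offset. The deposited input gives read positions with a mapping quality score and no normalization. Peak edges were measured to the TSSs of GENCODE vM21 on GRCm38, with a limit of 1 kb. Expected shares are means over genes of the share of other coding genes with a peak in the same 2% class of GC content, with at least 50 genes per class. Distances and expected shares were tested on simulated data. Work was done in Python 3.11.15 with numpy 2.4.6, scipy 1.17.1, pandas 2.3.3 and matplotlib 3.10.9.

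The genes and lists were chosen with earlier results of these data known. Genes given with full values were those with the highest −log10 q in each complex (up to 4) and list (up to 3), those nearest to the threshold, isoforms, and genes on chromosome 3 from 100 to 140 Mb; genes sharing peaks were named after their values were seen. Coa1, Micos10 and Micos13 were not found by symbol. Promoters came from RefSeq. Alternatives covered peak strength, distance, TSS choice, input, shared promoters and the classes.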

Additional observations from a re-analysis of the deposited data

How the results depend on the processing

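No paired analysis was possible because the peak list used here holds no values per ChIP sample, and no replicate was left out for the same reason. Across 20 alternatives, the ratio of observed to expected shares ran from 1.12 to 2.26 and was above 1 in all. Those with GC content and CpG ratio, with these and the number of TSSs, and with GC content and input gave 1.44, 1.47 and 1.69. The one with the number of TSSs as well as CpG, that with a head-to-head gene and that with Atp5o counted as 1 gene were added after seeing the data. At a −log10 q of 10 or more, the shares were 17.9% observed and 7.93% expected, 10.5% in complex I (7.78% expected), 0% in II (8.13%), 33.3% in III (7.96%), 11.1% in IV (7.33%), 33.3% in V (8.51%) and 25.0% in assembly factors (8.57%), with a median −log10 q of 13.9. The lists then had 14.5% (all assembly factors, 8.20% expected), 0% (coenzyme Q and cytochrome c, 8.36%), 15.8% (citrate cycle, 10.2%), 12.8% (mitochondrial ribosome, 8.11%), 17.4% (mitochondrial DNA, 7.23%), 35.7% (nuclear regulators, 12.7%), 21.2% (import and cristae, 9.22%) and 76.2% (cytosolic ribosome, 7.45%). At a −log10 q of 5 or more, coenzyme Q and cytochrome c had 12.5% against 18.3%. With the TSS in the peak they were 21.1% observed and 11.2% expected, 10.5% in complex I (10.9% expected), 0% in II (11.8%), 22.2% in III (11.2%) and IV (10.4%), 38.9% in V (11.8%) and 37.5% in assembly factors (12.2%). Without peaks of over 10 input read ends they were 2.11% observed and 1.88% expected, and 5.26% in complex I (1.78% expected). Complexes II (1.61% expected), III (2.00%), IV (2.03%) and V (1.92%) and the assembly factors (1.96%) then had 0%. This limit removes nearly all promoter peaks by its construction. Without genes whose peak lay nearer to another gene, complex II had 0% (20.5% expected) and complex III 28.6% (22.9% expected). The median input in 300 bp was 18.0 read ends, by the smaller window. Summit position and fold enrichment stayed within their intervals in the 6 alternatives run.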
